A study of Mus musculus with 12 samples.

Results

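The carboxylesterase genes Ces2a, Ces2b, Ces2c, Ces2e, Ces2f, Ces2g, Ces1d, Ces1e, Ces1f and Ces1g were followed across 4 groups of mouse liver cancer organoid cells. These 10 genes were listed by name and chosen by their values in the 5-FU and untreated libraries, whose results were already known, out of 20 carboxylesterase genes and 47069 genes in the count table. RNA-seq read counts were available for 12 libraries, 3 in each group. The groups were LGR5- and LGR5+ cells from untreated organoids, and LGR5- and LGR5+ cells from organoids treated with 5-FU (5-fluorouracil, a pyrimidine analogue that blocks thymidylate synthase and enters RNA and DNA). All cells carried the LGR5-DTRGFP+ genotype on the C57BL/6 strain. In this knock-in the Lgr5 locus drives a diphtheria toxin receptor fused to GFP, and the GFP signal served to sort the populations. The tumors had been induced with weekly diethylnitrosamine injections begun when the mice were a few weeks old, and livers were collected months after the last injection. Dead cells were excluded with propidium iodide and leucocytes with CD45 staining. The methods give a micromolar concentration of 5-FU for drug assays on organoids, but tie neither it nor a duration to these libraries, and the age of the mice and the number of organoid lines behind these libraries were likewise not given in the sources used here. No source says that the 3 libraries of a group came from separate cultures, so the spread between them may be technical.

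Carboxylesterases are serine hydrolases of the endoplasmic reticulum lumen that split ester, thioester and amide bonds. They are known for detoxifying xenobiotics, for converting ester prodrugs and for mobilising stored lipid, and are most abundant in hepatocytes and in the epithelium of the small intestine. Ces1 enzymes prefer substrates with a large acyl group, whereas Ces2 enzymes prefer a large alcohol group and include the family to which the irinotecan-activating human CES2 belongs. In mouse both subfamilies have expanded into tandem arrays.

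On the GRCm38 build (GENCODE M21), every member is a protein-coding gene of chromosome 8. The 8 Ces1 genes and Ces5a lie on the minus strand, and the Ces2 genes with Ces3a, Ces3b and Ces4a on the plus strand. Ces2e (chr8:104926260-104934672), Ces2f (chr8:104947356-104960047) and Ces2g (chr8:104961718-104969537) are consecutive, with 12683 bases between Ces2e and Ces2f and 1670 bases between Ces2f and Ces2g. Upstream of them lie Ces2a (chr8:104734003-104741634), Ces2b (chr8:104831572-104840093), Ces2c (chr8:104847068-104854483) and the pseudogene Ces2d-ps. In the Ces1 array, Ces1d (chr8:93166068-93197838), Ces1e (chr8:93201218-93229619), Ces1f (chr8:93256236-93279747) and Ces1g (chr8:93302369-93337308) are consecutive. No protein-coding gene of another family lies inside either array, and of the members only Ces1d is overlapped by another annotated gene, Gm45909 on the same strand.

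Coding sequences of the Ces2 members were 80% to 91.67% identical over 15 pairs and those of the Ces1 members 75.97% to 82.44% over 6 pairs. Between a Ces1 and a Ces2 member identity was 60.97% to 63.15% over 24 pairs. Among the Ces2 genes with many reads, Ces2e and Ces2g were 83.04% identical, Ces2f and Ces2g 81.19%, and Ces2e and Ces2f 80.94%. Because paralogs can exchange reads, 1 transcript per member was cut into windows of 150 bases, the length of 1 read of the paired-end run. It was the transcript with the longest coding sequence, and exon bases outside it were not searched. It held all 2699 merged exon bases of Ces2e, but 1823 of 4925 for Ces2f, 2859 of 3574 for Ces2g and 2004 of 2369 for Ces1d. No window searched of Ces2e, Ces2f, Ces2g or Ces1d was identical to a transcript of another gene. Differences were counted for windows taken every 5 bases, against 1 transcript of each other carboxylesterase. Among these, the closest match differed from Ces2e at 4 bases (Ces2a), from Ces2f at 7 (Ces2g), from Ces2g at 7 (Ces2b) and from Ces1d at 9 (Ces1g). The usual distance was larger, with a median over windows of 23 to 27 differences for these 4 genes. Ces2a and Ces2c could lose reads to copies: 73 of 1811 windows of Ces2a were identical to Gm7208, and 61 of 1821 windows of Ces2c to Ces2d-ps or Gm8798. Of the Ces2c windows compared in this way, 167 of 365 lay within 3 differences of another carboxylesterase.

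The promoters of the 3 neighbouring genes with many reads after 5-FU are shown with those of Ces2a and Ces2c, which belong to the same array and had no read. Each line gives the 150 bases before the RefSeq start site on GRCm38.p6, plus strand, 5′ to 3′. Capitals mark ACTTTGCCC, the longest run shared by the Ces2e, Ces2f and Ces2g windows, which was found after the sequences had been read. The stretches are chr8:104926110-104926259 for Ces2e, chr8:104947206-104947355 for Ces2f, chr8:104961568-104961717 for Ces2g, chr8:104733853-104734002 for Ces2a and chr8:104846918-104847067 for Ces2c.
Ces2e: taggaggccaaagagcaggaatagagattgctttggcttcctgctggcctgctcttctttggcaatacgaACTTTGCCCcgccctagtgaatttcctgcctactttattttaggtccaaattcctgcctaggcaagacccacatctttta
Ces2f: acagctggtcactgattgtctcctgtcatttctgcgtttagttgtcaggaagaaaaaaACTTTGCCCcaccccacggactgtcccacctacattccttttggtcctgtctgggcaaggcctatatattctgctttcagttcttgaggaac
Ces2g: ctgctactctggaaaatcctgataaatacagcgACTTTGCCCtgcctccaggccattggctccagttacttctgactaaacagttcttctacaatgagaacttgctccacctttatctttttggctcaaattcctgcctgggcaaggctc
Ces2a: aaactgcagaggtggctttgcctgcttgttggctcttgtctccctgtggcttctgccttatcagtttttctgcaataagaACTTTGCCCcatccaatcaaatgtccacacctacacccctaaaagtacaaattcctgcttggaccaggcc
Ces2c: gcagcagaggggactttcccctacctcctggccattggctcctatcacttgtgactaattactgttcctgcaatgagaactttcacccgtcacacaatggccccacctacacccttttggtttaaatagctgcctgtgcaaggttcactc

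The run of 9 bases starts 80 bases before the start site of Ces2e, 92 bases before that of Ces2f and 117 bases before that of Ces2g. It is also in Ces2a, 70 bases before the start, and not in Ces2c. Searched on both strands, it occurred in 86 of 32851 mouse promoter windows of 300 bases (250 before and 50 after the start), or 0.262%. Over these 300 bases Ces2e was 56.6% identical to Ces2f and 59.16% to Ces2g, and Ces2a and Ces2c were the closest pair shown at 67.81%. Searches for 14 common elements on both strands gave no match shared by the 3 promoters. A GC box (GGGCGG, in 35.7% of all windows) matched in Ces2e only, 72 bases before the start and overlapping the shared run. The C/EBP letters TTGCNNAA (10.8%) matched in Ces2e 93 bases before the start. In Ces2g, CCAAT (37.4%) matched 96 bases, the p53 decamer (8.36%) 53 bases and the GATA letters AGATAA (11.2%) 38 bases before the start. The TATA box TATAAA (13.6%), AP-1 TGANTCA (7.81%) and HNF4A CAAAGTCCA (0.475%) had no match in these 3 windows. Neither had the antioxidant response core TGACNNNGC (12.4%), the HNF1 palindrome (0.0609%), the E box CACGTG (7.15%), the glucocorticoid element (0.00913%), FOX TGTTTAC (3.65%) and the PPAR direct repeat (0.0396%). The matches describe letters only. Of the 10 members, 7 had a promoter entry, and Ces1d, Ces1f and Ces2b had none.

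Counted reads ranged from 13750591 to 19323514 per library. Where no read was counted, up to 3 reads remain possible, or 0.165 to 0.220 CPM (reads scaled to a common depth after TMM) depending on the library. This limit covers counting error only. Mitochondrial genes took 1.47% to 3.08% of reads in 10 libraries and 6.44% and 6.93% in the 2 libraries numbered 3 of the LGR5- groups. Lgr5 itself did not separate the sorted populations: it stood at 28.8 ± 6.63 CPM in LGR5- and 25.7 ± 2.12 CPM in LGR5+ untreated cells, and at 25.1 ± 9.50 and 27.0 ± 0.196 CPM after 5-FU (SD, n = 3). LGR5+ and LGR5- therefore name the libraries as labelled. Among hepatocyte genes, Serpina1a had no read, Hnf4a had 2 reads in 1 library, and Alb lay between 0.147 and 1.86 CPM. The bile duct keratins Krt7 (564 to 5679 CPM) and Krt19 (374 to 4482 CPM) were abundant. So was Sftpc, a surfactant gene of the alveolar epithelium (2619 to 17335 CPM), with Nkx2-1 at 43.3 to 76.3 CPM. Of 8 intestinal genes, Cdx1, Cdx2 and Alpi had no read, while Vil1, a protein of microvilli, was the highest with a mean of 66.9 CPM, and the summed level of the list ran from 24.1 to 98.7 CPM over the libraries. Of the hepatocyte list, the fetal gene Afp was highest, with a mean of 28.8 CPM. The label liver cancer thus stands beside adult hepatocyte genes near 0 and lung markers that were present.

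Of the 10 members, 4 had enough reads for the fit (Ces2e, Ces2g, Ces2f and Ces1d) and 6 did not. Ces2a and Ces2c, both acylglycerol hydrolases in mouse, had no read in any library. Ces2b had 3 reads in LGR5- 5-FU library 1, 4 reads in LGR5+ 5-FU library 3 and none elsewhere. Ces1e, which retains beta-glucuronidase in the endoplasmic reticulum, had 8 reads in all and at most 2 in a library. Ces1f had 6 reads in LGR5- 5-FU library 2, 2 in LGR5+ 5-FU library 3 and 1 in LGR5+ untreated library 1. Ces1g, a hepatic lipid hydrolase, had 1 read, in LGR5- untreated library 2. At this depth a difference between groups was not detectable for these 6 genes. Of the 10 carboxylesterase genes outside the list, Ces1a, Ces1b, Ces1c, Ces1h, Ces2d-ps, Ces2h, Ces3a and Ces3b had no read, and Ces4a and Ces5a had 4 reads each, never more than 1 in a library.

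**Figure D1:**
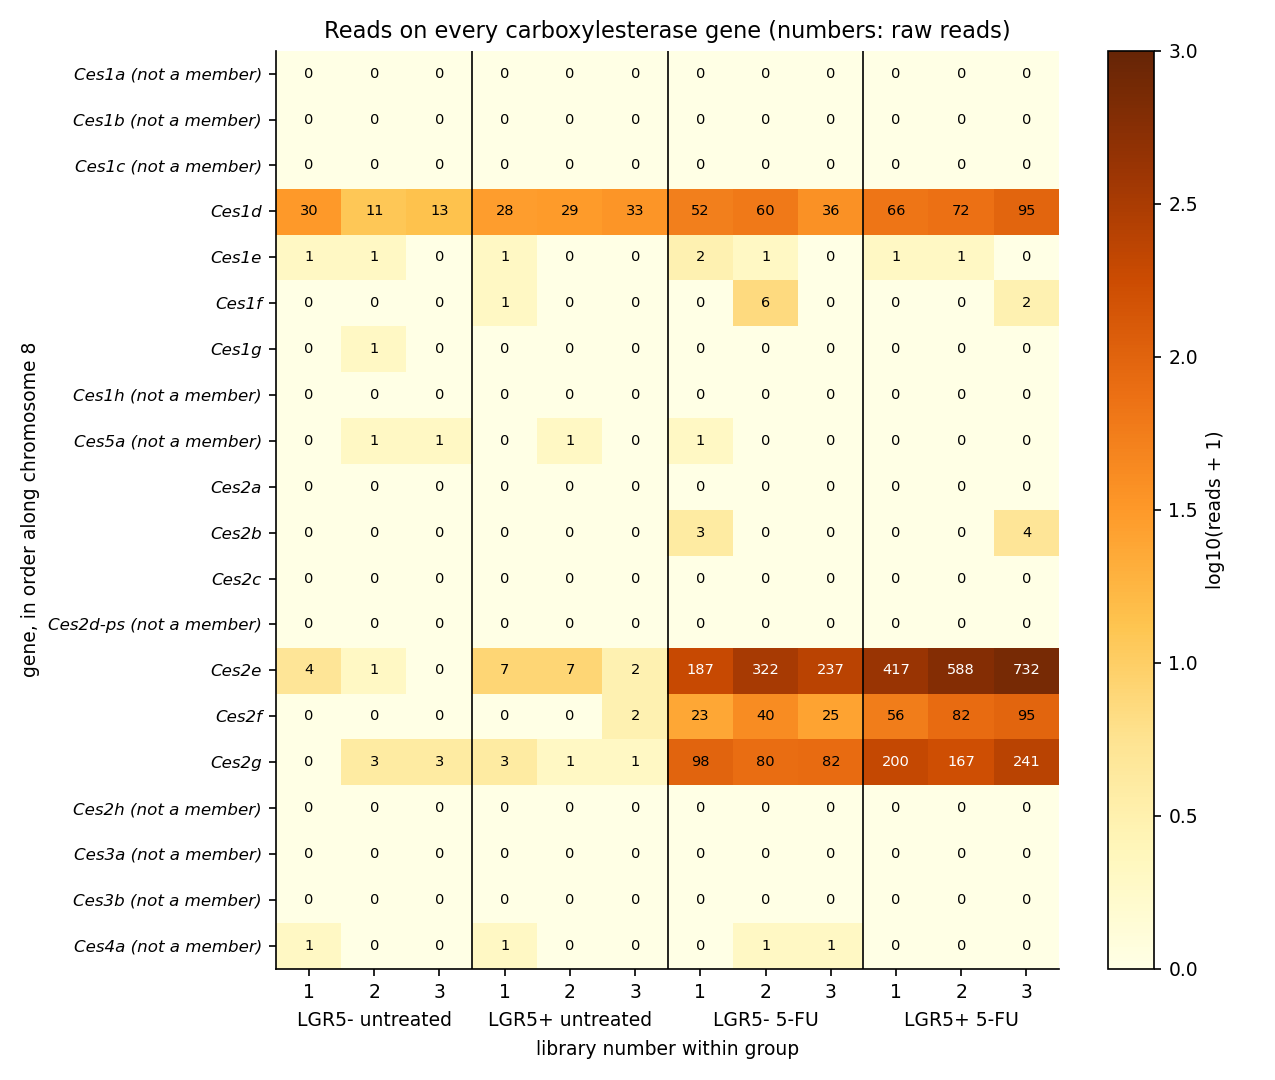
Raw reads on all 20 carboxylesterase genes (rows, in order along chromosome 8) in the 12 libraries (columns, by group), coloured by log10(reads + 1). After 5-FU, every library had reads on the neighbours Ces2e, Ces2f and Ces2g and on Ces1d in the other array, while in the Ces2 array Ces2a, Ces2c and Ces2h stayed at 0 and Ces2b had reads in 2 libraries.

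Ces2e, a Ces2 enzyme of liver and intestine, had the most reads. In LGR5- untreated libraries 1, 2 and 3 it had 4, 1 and 0 reads, and in LGR5+ untreated libraries 7, 7 and 2. After 5-FU the LGR5- libraries held 187, 322 and 237 reads, and the LGR5+ libraries 417, 588 and 732. Every treated library was above every untreated one, and every treated LGR5+ library was above every treated LGR5- one. The share of all genes that separate in these ways was not counted, here or for the members below. As levels, these were 0.0991 ± 0.127 CPM in LGR5- and 0.318 ± 0.172 CPM in LGR5+ untreated cells, and 15.7 ± 4.17 and 32.9 ± 9.69 CPM after 5-FU (SD, n = 3). The fitted log2 difference between 5-FU and untreated cells was 6.66 (SE 0.47) in LGR5+ cells and 7.26 (SE 0.55) in LGR5- cells. From the summed reads, the treated level was 103 times the untreated one in LGR5+ cells (exact 95% interval 63.2 to 181) and 165 times in LGR5- cells (70.4 to 510). These intervals cover counting error only. In LGR5- cells the untreated side rests on 5 reads, and without LGR5- untreated library 1 the log2 difference was 8.82. In these bulk libraries, more cells that express a gene and more RNA per cell cannot be told apart.

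Ces2g lies next in number of reads. It had 0, 3 and 3 reads in LGR5- and 3, 1 and 1 reads in LGR5+ untreated libraries. After 5-FU it had 98, 80 and 82 reads in LGR5- and 200, 167 and 241 reads in LGR5+ libraries. Treated and untreated libraries did not overlap, and neither did treated LGR5+ and treated LGR5- libraries. Mean levels after 5-FU were 5.49 ± 0.708 CPM in LGR5- and 11.5 ± 2.46 CPM in LGR5+ cells (SD, n = 3). All 6 untreated libraries were at or under 3 reads. The log2 difference between 5-FU and untreated cells was 6.76 (SE 0.52) in LGR5+ cells, a ratio of summed reads of 115 (exact 95% interval 49.2 to 356). In LGR5- cells it was 5.51 (SE 0.50), a ratio of 47.9 (21.7 to 132).

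Ces2f, which lies between them on the chromosome, had no read in 5 of the 6 untreated libraries and 2 reads in LGR5+ untreated library 3. After 5-FU it had 23, 40 and 25 reads in LGR5- and 56, 82 and 95 reads in LGR5+ libraries, again without overlap between treatments or between treated populations. Mean levels after 5-FU were 1.84 ± 0.494 CPM in LGR5- and 4.40 ± 1.21 CPM in LGR5+ cells (SD, n = 3). In LGR5- cells, with no untreated read, the treated level was at least 10.8-fold higher, computed against the limit of 3 reads per library. In LGR5+ cells the ratio of summed reads was 110 (exact 95% interval 30.2 to 918), and the fitted log2 difference was 6.55 (SE 0.74). The width of that interval comes from the 2 untreated reads, both in 1 library.

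Ces1d, the triacylglycerol hydrolase of liver and fat, was the only member with more than 7 reads in an untreated library. It had 30, 11 and 13 reads in LGR5- and 28, 29 and 33 reads in LGR5+ untreated libraries. After 5-FU it had 52, 60 and 36 reads in LGR5- and 66, 72 and 95 reads in LGR5+ libraries. Treated libraries were above untreated ones in both populations, with a smaller gap than for the Ces2 genes. Levels were 1.05 ± 0.669, 1.79 ± 0.177, 3.07 ± 0.436 and 4.41 ± 0.9999 CPM in LGR5- untreated, LGR5+ untreated, LGR5- 5-FU and LGR5+ 5-FU cells (SD, n = 3). The log2 difference between 5-FU and untreated cells was 1.30 (SE 0.39) in LGR5+ cells and 1.56 (SE 0.40) in LGR5- cells. As ratios of summed reads these were 2.46 (exact 95% interval 1.92 to 3.17) and 3.03 (2.20 to 4.22). Untreated LGR5- library 1 stood apart from libraries 2 and 3, at 1.82 against 0.603 and 0.722 CPM, and without it the log2 difference in LGR5- cells was 2.20.

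**Figure D2:**
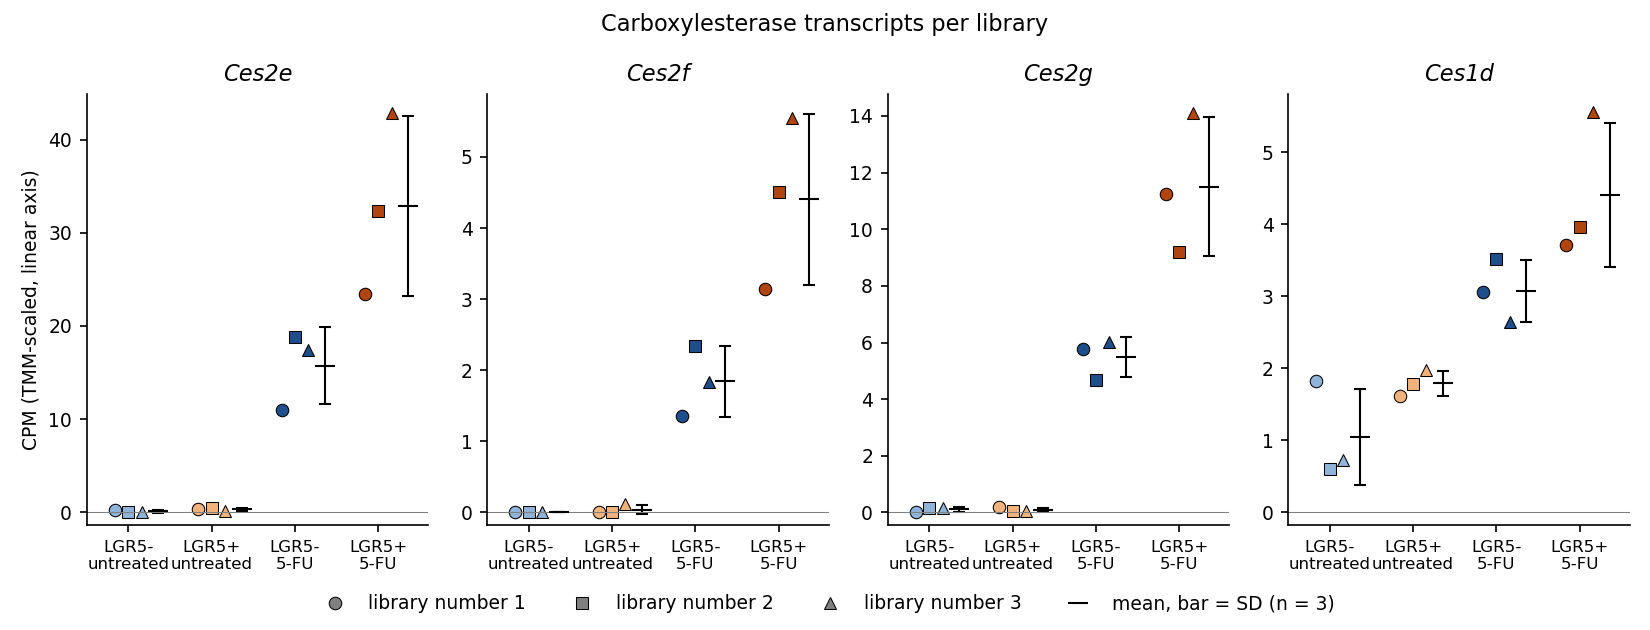
CPM per library (linear axis, one scale per gene) of Ces2e, Ces2f, Ces2g and Ces1d in the 4 groups, with symbols for the library number and the mean with its SD (n = 3) beside the points. Treated libraries lie above untreated ones for each gene, and for each gene the treated LGR5+ libraries lie above the treated LGR5- ones. The share of all genes that do so was not counted.

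In the fit over all genes, 16% of the 16157 tested genes were called at an adjusted P under 0.05 (edgeR quasi-likelihood test, Benjamini-Hochberg) between 5-FU and untreated LGR5+ cells, and 9.66% were called higher. In LGR5- cells the shares were 15.4% and 8.3%. The 4 members with enough reads were called higher in both populations. The members were listed with these responses known, and 3 of the 4 passed the read filter only through their treated libraries, so nothing is read from that count. In LGR5+ cells the call of Ces1d was lost without TMM scaling and in 5 of 6 fits that left out 1 library (LGR5+ untreated library 1, 2 or 3, or LGR5+ 5-FU library 2 or 3), with log2 values of 1.10 to 1.38. In LGR5- cells it was lost without LGR5- untreated library 2 (log2 1.28), without LGR5- 5-FU library 2 (log2 1.44), and when only the libraries compared were fitted.

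**Figure D3:**
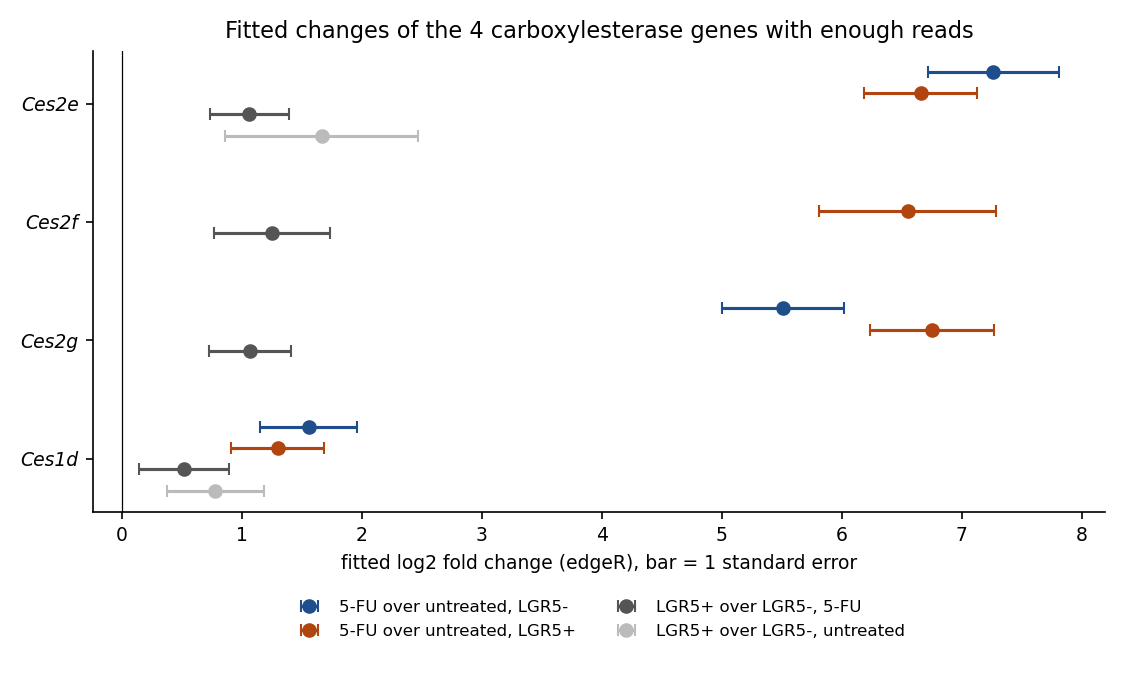
Fitted log2 fold changes (horizontal axis) with 1 standard error for Ces2e, Ces2f, Ces2g and Ces1d in 4 comparisons. The 5-FU differences of the Ces2 genes lie between 5.51 and 7.26 and those of Ces1d at 1.30 and 1.56; no point is drawn where a group had no read or where both groups had at most 3 reads per library.

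Compared per length, the order of levels after 5-FU in LGR5+ cells was Ces2e at 12.2 ± 3.59 CPM per kilobase of merged exons, Ces2g at 3.22 ± 0.689, Ces1d at 1.86 ± 0.422 and Ces2f at 0.894 ± 0.245 (SD, n = 3). The annotation gives Ces2f 4925 bases of merged exons but 1823 in the transcript with the longest coding sequence. With transcript lengths Ces2f was at 2.42 ± 0.662 and Ces1d at 2.20 ± 0.499 CPM per kilobase, so the order of these neighbours depends on the length used, and only with transcript lengths do they lie within each other's spread. Ces2e stayed first and Ces2g second with both lengths. In untreated LGR5+ cells Ces1d was first, at 0.756 ± 0.0748 CPM per kilobase of merged exons, and Ces2e second, at 0.118 ± 0.0639.

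The make-up of the summed signal changed with treatment. Over all members, the level was 0.888 to 2.12 CPM in LGR5- and 2.27 to 2.31 CPM in LGR5+ untreated libraries. It was 21.5 to 29.8 CPM in LGR5- and 41.6 to 68.3 CPM in LGR5+ libraries after 5-FU. Ces1d supplied 64.7% to 86.8% of the member reads in untreated libraries and 7.91% to 14.2% in treated ones. Ces2e supplied 51.1% to 64.6% of all carboxylesterase reads in treated libraries.

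Whether the sorted populations differed was asked within each treatment. The members were listed with their values in all 4 groups known, so their differences are given with standard errors, as a description without P values. Among untreated libraries, Ces1d was 0.78 (SE 0.41) higher on the log2 scale in LGR5+ than in LGR5- cells and Ces2e 1.67 (SE 0.80). Without LGR5- untreated library 1 these differences were 1.43 for Ces1d and 3.22 for Ces2e, without library 2 they were 0.50 and 1.40, and without library 3 they were 0.57 and 1.10. Ces2f and Ces2g were at or under 3 reads in all untreated libraries and no fold is given. No gene was called in this comparison, a share of 0%, by edgeR or by DESeq2; 214 genes, 1.32%, had an unadjusted P under 0.05.

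Among 5-FU-treated libraries, all 4 members were higher in LGR5+ cells, and for each the lowest LGR5+ library was above the highest LGR5- library. The share of all tested genes that separated in this way was not counted, so nothing is read from this separation. The log2 difference was 1.06 (SE 0.33) for Ces2e, 1.07 (SE 0.34) for Ces2g, 1.25 (SE 0.48) for Ces2f and 0.52 (SE 0.38) for Ces1d. No gene of the 16157 tested, members included, was called at an adjusted P under 0.05 (edgeR), a share of 0%, and without the read filter 11 were called, although 2095 genes, 13%, had an unadjusted P under 0.05; DESeq2 called 92 genes and no member. For Ces1d the gap between the populations was narrow, from 3.51 to 3.71 CPM.

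Treated libraries with the same number deviated together. Their deviations from the group means correlated at 0.217 to 0.571 across genes in the 3 pairs. On that ground alone same-numbered treated libraries were handled as pairs, since no source says that they share a culture. Within these pairs Ces2e was 2.13, 1.72 and 2.46 times as high in LGR5+ as in LGR5- cells, Ces2g 1.95, 1.96 and 2.34 times, Ces2f 2.33, 1.93 and 3.03 times, and Ces1d 1.21, 1.13 and 2.10 times. With the replicate number as a block in the fit of all 12 libraries, no gene was called. A fit of the 6 treated libraries alone with the replicate block, chosen after seeing the data, called 451 genes. In that fit the log2 difference was 0.98 for Ces2e, 0.98 for Ces2g, 1.17 for Ces2f and 0.43 for Ces1d. It called Ces2e and Ces2g and not Ces2f or Ces1d, and nothing is read from these calls, since the members were listed with such values known.

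The balance between Ces2g and Ces2e in the treated libraries is set out by library number. Of the reads on Ces2g and Ces2e together, Ces2g took 34.4% (exact 95% interval 28.9 to 40.2) in LGR5- and 32.4% (28.7 to 36.3) in LGR5+ 5-FU library 1. In the pair numbered 2 the shares were 19.9% (16.1 to 24.1) and 22.1% (19.2 to 25.3). In the pair numbered 3 they were 25.7% (21.0 to 30.9) and 24.8% (22.1 to 27.6). The intervals overlapped within each pair, and those of pairs 1 and 2 did not overlap each other, while that of LGR5- library 3 overlapped those of both other pairs. A difference between library numbers was not tested. The share of Ces2f among reads on Ces2f and Ces2e lay between 9.54% and 12.2% in all 6 treated libraries, with overlapping intervals. The intervals are exact binomial ones and cover counting error only.

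**Figure D4:**
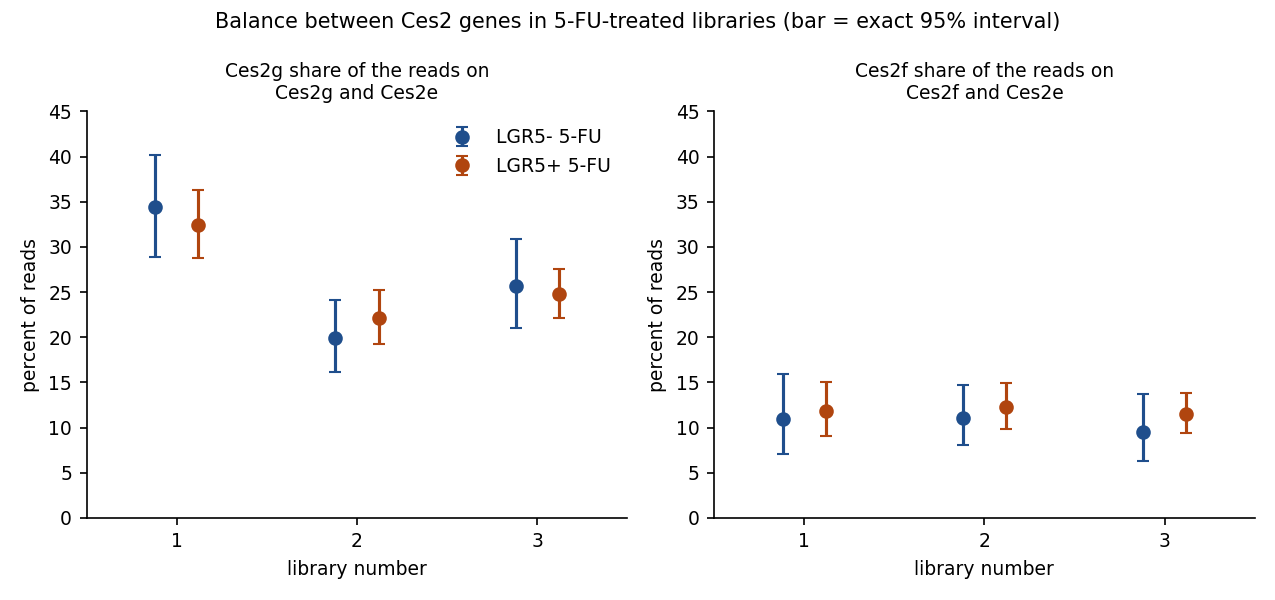
Share of Ces2g among reads on Ces2g and Ces2e (left) and of Ces2f among reads on Ces2f and Ces2e (right) in treated libraries, by library number, with exact 95% intervals (percent of reads). The Ces2g share ran from 19.9% to 34.4%, with overlapping intervals in same-numbered LGR5- and LGR5+ libraries, and the Ces2f share lay between 9.54% and 12.2%.

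The 5-FU response was then compared between the populations. The difference of the log2 responses, LGR5+ minus LGR5-, was -0.26 (SE 0.55) for Ces1d, -0.60 (SE 0.83) for Ces2e and 1.25 (SE 0.88) for Ces2g in the edgeR interaction contrast. Single untreated libraries moved these differences: without LGR5- untreated library 1 they were -2.15 for Ces2e, -0.91 for Ces1d and 1.77 for Ces2g. Without LGR5- untreated library 3 the difference of Ces2e was -0.04, and without LGR5+ untreated library 1 that of Ces2g was 1.90. No tested gene was called, a share of 0%, by edgeR or DESeq2, and 254 genes, 1.57%, had an unadjusted P under 0.05. For Ces2f no difference is given, since untreated LGR5- cells had no read.

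None of the tested genes flanking the arrays was called higher after 5-FU, where 9.66% of all genes in LGR5+ and 8.3% in LGR5- cells were; among so few genes a count of 0 is close to that background. Of the 10 nearest protein-coding genes around the Ces2 array, 9 had enough reads. Their log2 differences between 5-FU and untreated cells lay between -1.23 and 0.48 in LGR5+ cells and between -0.69 and 0.31 in LGR5- cells. Of all genes 6.37% in LGR5+ and 7.11% in LGR5- cells were called lower. Around the Ces2 array 1 gene was, Pdp2, a pyruvate dehydrogenase phosphatase, in LGR5+ cells (log2 -1.09, SE 0.26, adjusted P = 0.0103, edgeR). That call was lost without LGR5+ untreated library 2 (log2 -0.87) or LGR5+ 5-FU library 3 (log2 -0.95). Around the Ces1 array 5 of 10 genes had enough reads, and Nudt21, a cleavage factor for polyadenylation, fell in both populations. Its log2 difference was -0.74 (SE 0.18, adjusted P = 0.0101) in LGR5+ and -0.88 (SE 0.18, adjusted P = 0.00424) in LGR5- cells, and the first was lost without LGR5+ untreated library 3 (log2 -0.71) or LGR5+ 5-FU library 2 (log2 -0.68).

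Other hydrolases of esters, lipids and amides moved in both directions. Of 27 listed, 22 were tested; 5 rose and 3 fell in LGR5+ cells, and 2 rose and 2 fell in LGR5- cells, with medians of 0.16 and 0.03 on the log2 scale against -0.02 and -0.05 over all genes. Among all genes 9.66% rose and 6.37% fell in LGR5+ cells, whereas 8.3% rose and 7.11% fell in LGR5- cells. Ephx1, the microsomal epoxide hydrolase, rose from 390 ± 49.9 to 1433 ± 290 CPM in LGR5+ cells (adjusted P = 7.51e-05, edgeR; SD, n = 3) and from 306 ± 14.2 to 962 ± 220 CPM in LGR5- cells (adjusted P = 0.000305, edgeR). Lpl, the lipoprotein lipase, fell by 2.11 (SE 0.25) and by 1.60 (SE 0.25) on the log2 scale. Abhd5, the coactivator of adipose triglyceride lipase, rose by 1.19 (SE 0.21) in LGR5+ cells, and Nceh1, a cholesterol ester hydrolase, by 0.82 (SE 0.20) in LGR5- cells. Each of these passed at an adjusted P under 0.05, and Nceh1 lost its call without LGR5- untreated library 2 (adjusted P = 0.0561, edgeR) or LGR5- 5-FU library 2 (0.0537), and when the libraries compared were fitted alone (0.0722), with log2 values of 0.78, 0.76 and 0.82.

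Triglyceride synthesis and lipoprotein assembly, the pathways that Ces1d serves in hepatocytes, had 14 of 17 genes tested. In LGR5+ cells 3 rose and 2 fell, and in LGR5- cells 2 rose and 2 fell, with medians of -0.13 and -0.26, beside 9.66% and 8.3% of all genes called higher and 6.37% and 7.11% lower. Plin2, a coat protein of lipid droplets, rose from 43.4 ± 4.96 to 162 ± 24.6 CPM in LGR5+ cells and from 37.2 ± 5.80 to 113 ± 25.6 CPM in LGR5- cells (SD, n = 3). Mogat2, a monoacylglycerol acyltransferase, fell by 2.03 (SE 0.35) and 1.33 (SE 0.34) on the log2 scale, and Soat1, which esterifies cholesterol, fell by 0.77 (SE 0.19) and 1.09 (SE 0.19). In LGR5- cells Mogat2 lost its call without LGR5- untreated library 1 or LGR5- 5-FU library 2 or 3 (adjusted P of 0.0533 to 0.0617, edgeR). In LGR5+ cells Soat1 lost its call without LGR5+ untreated library 1 or LGR5+ 5-FU library 2 or 3 (0.0605 to 0.0747).

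Of 18 genes that handle irinotecan, the prodrug of the Ces2 family, 8 were tested; 2 rose and none fell in each population, with medians of -0.03 and 0.00. Of all genes 9.66% rose in LGR5+ and 8.3% in LGR5- cells. They were Cyp3a13, an oxidase of the Cyp3a family (log2 2.20, SE 0.45, in LGR5+ and 2.06, SE 0.47, in LGR5- cells), and Abcb1b, a drug efflux pump (1.41, SE 0.30, and 1.85, SE 0.30). Ugt1a6b, a glucuronosyltransferase, did not pass in LGR5+ cells (2.82, SE 0.94, adjusted P = 0.0542, edgeR), nor did the efflux pump Abcg2 in LGR5- cells (-0.71, SE 0.31, adjusted P = 0.146, edgeR). Reads of the Ugt1a genes are uncertain, since these share exons.

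Regulators of xenobiotic and lipid enzymes had 18 of 24 genes tested; 4 rose in LGR5+ and 2 in LGR5- cells and none fell, with medians of 0.49 and 0.04, beside the same 9.66% and 8.3% of all genes called higher. Klf4, a zinc finger factor of differentiating epithelium, rose by 1.73 (SE 0.27) and 1.84 (SE 0.27) on the log2 scale. Nfe2l2, the factor of the antioxidant response, rose by 0.96 (SE 0.21) and Rxra, the common partner of nuclear receptors, by 1.12 (SE 0.26) in LGR5+ cells. Nr1h3, a liver X receptor, rose by 1.28 (SE 0.32) in LGR5- cells, a call lost without LGR5- 5-FU library 2 (log2 1.08, adjusted P = 0.0729, edgeR) and when the libraries compared were fitted alone, without the replicate block (log2 1.29, adjusted P = 0.0952) or with it (log2 1.27, adjusted P = 0.0559). Cebpb there did not pass (0.56, SE 0.19, adjusted P = 0.0559, edgeR). The drug sensors Nr1i2 and Nr1i3, chosen after their values were seen, had at most 9 and 2 reads in a library. Of 13 genes listed as partners of the endoplasmic reticulum lumen none rose and 1 fell. It was Kdelr2, which returns resident proteins to that compartment, in LGR5- cells (log2 -0.86, SE 0.20, adjusted P = 0.00995, edgeR), where 7.11% of all genes fell. This call was lost without LGR5- untreated library 2 or LGR5- 5-FU library 2 (log2 -0.73 and -0.77, adjusted P of 0.0511 and 0.0503), and when the libraries compared were fitted alone (log2 -0.85, adjusted P = 0.0590). Medians were 0.08 in LGR5+ and -0.37 in LGR5- cells. In the edgeR fit of all 12 libraries, no gene of these lists was called between the sorted populations.

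Some markers of stratified, bile duct and lung epithelium were also higher after 5-FU. Of 7 stratified epithelium genes, 6 rose in each population after 5-FU, beside 9.66% of all genes in LGR5+ and 8.3% in LGR5- cells. Their summed level was 37.3 to 127 CPM over the untreated libraries, 195 to 486 CPM in LGR5- and 847 to 1411 CPM in LGR5+ 5-FU libraries. Krt6a, a keratin of activated keratinocytes, ran from 0.242 to 3.38 CPM in untreated, from 27.8 to 50.1 CPM in LGR5- 5-FU and from 79.5 to 175 CPM in LGR5+ 5-FU libraries. Their part in the carboxylesterase result was not tested. Of 8 cholangiocyte and progenitor markers, 7 were tested, and 2 rose and 1 fell in each population. On the log2 scale Krt19 rose by 2.95 (SE 0.31) in LGR5+ and 2.35 (SE 0.30) in LGR5- cells. Krt7 rose by 2.64 (SE 0.34) and 1.75 (SE 0.33), and Prom1 fell (-0.98 and -1.44). Of 8 lung markers, 7 were tested, and 2 rose and none fell in each population (medians 1.19 and 0.68). Cyp2f2 rose in both (2.99, SE 0.28, and 2.39, SE 0.27), Lamp3 in LGR5+ (1.19, SE 0.28) and Scgb1a1 in LGR5- cells (4.15, SE 1.22). The alveolar gene Sftpc, not called, was at 2619 to 6037 CPM in treated and 3440 to 17335 CPM in untreated libraries. Of the 10 hepatocyte markers 4 were tested and 1 rose, Afp, from 15.8 ± 4.19 to 39.1 ± 14.4 CPM in LGR5+ and from 16.3 ± 5.80 to 44.0 ± 14.5 CPM in LGR5- cells (SD, n = 3). Of 6 leukocyte markers 2 were tested and 1 rose, Cd68, and Ptprc (CD45) averaged 0.637 CPM. Of 6 gastric markers 1 was tested, Pgc, which rose in LGR5- cells and was not called in LGR5+ cells. The tested genes of the other lists, 1 of 8 intestinal, 2 of 5 kidney, 1 of 3 endothelial and 1 of 4 fibroblast markers, were not called, and the rest had too few reads to be tested.

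Across the 12 libraries the genes outside the list whose log2 CPM followed Ces2e most closely, out of 16156, were Btg2 (Pearson r 0.997), Mcam (0.994), Serpine2 (0.992), Robo3 (0.991) and Adgrb3 (0.991). Btg2 is an antiproliferative target of p53, Mcam an adhesion molecule, Serpine2 a serine protease inhibitor, Robo3 an axon guidance receptor and Adgrb3 an adhesion receptor. The libraries form 2 blocks, untreated and treated, which by themselves give high values, so r is a description. Btg2 averaged 109 and 131 CPM in LGR5- and LGR5+ untreated cells and 451 and 551 CPM after 5-FU, and Robo3 0.248, 0.501, 16.7 and 23.1 CPM. With Spearman's rho 2 of these 5, Serpine2 and Adgrb3, were among the first 5. Among the members, Ces2f ranked 90th (r 0.972), Ces2g 137th (0.963) and Ces1d 737th (0.898).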

How the data were processed

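Sequencing was paired-end 150-bp RNA-seq of SMARTer-amplified RNA from sorted organoid cells, 3 libraries in each of 4 groups taken from the sample titles. The authors deposited 1 table of read counts per gene without normalization. The submitters' processing notes name HISAT, HISAT2, TopHat2, HTSeq and the build mm8, with no role or version; the annotation, the use of strand and the treatment of multiply mapped reads are not given in the sources used here. Positions therefore describe GENCODE M21 (GRCm38), not that counting. Of the gene identifiers, 46488 matched a symbol and 581 did not.

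Counts of 16157 genes kept by filterByExpr were TMM-scaled and fitted in edgeR 4.0.16 (R 4.3.3, limma 3.58.1) with glmQLFit (robust) on 4 group means over all libraries, and contrasts were tested with glmQLFTest. A gene was called at a Benjamini-Hochberg adjusted P under 0.05 over all tested genes; at the study's thresholds (P under 0.05, absolute log2 fold change over 1.5) 7.23% and 7% of genes passed for 5-FU in LGR5+ and LGR5- cells. DESeq2 1.42.0 was an alternative. The standard error is the log2 fold change divided by the square root of F. Ratios of summed reads carry exact conditional intervals and shares Clopper-Pearson intervals, at 95%. The smallest fold against a group without reads uses 3 reads per library. The depth of 13750591 to 19323514 reads per library puts this limit at 0.165 to 0.220 CPM. The script was tested on simulated data. No 2 libraries of a group were copies: their chi-square per degree of freedom was at least 15.1. The lowest value between libraries of different groups was 4.42, below every value within a group.

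The members and lists were chosen with earlier results of these data known, so member values are given without P values. Named genes were all members, Lgr5, the other carboxylesterases, per list and comparison up to 3 genes with the smallest P, flanking genes called, and the 5 genes most similar to Ces2e; marker genes with a defining role in a tissue were added after their values were seen. The lists covered other carboxylesterases, hydrolases of esters, lipids and amides, and triglyceride synthesis with lipoprotein assembly. Further lists covered irinotecan handling, regulators, and partners of the endoplasmic reticulum lumen, beside markers of 10 cell types. Same-numbered libraries were paired where every correlation of deviations exceeded 0.1. This held for the treated populations (0.217 to 0.571) and not for untreated LGR5- and LGR5+ libraries (-0.119 to 0.481), LGR5- treatments (0.0546 to 0.425) or LGR5+ treatments (-0.168 to 0.0184). Identity was computed on coding sequences of GENCODE transcripts, and protein identity was not analysed here. Promoters are from RefSeq on GRCm38.p6. Alternatives were other filters, scalings and tools, fits of the libraries compared, the replicate block, and leaving out libraries. Figures were drawn with matplotlib 3.10.9.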

Additional observations from a re-analysis of the deposited data

How the results depend on the processing

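The choice of members fixes the direction and the calls of their 5-FU responses, so nothing is read from their stability. Over the alternatives, the log2 response of Ces2e ranged from 6.28 to 6.92 in LGR5+ and from 6.62 to 8.82 in LGR5- cells, that of Ces2g from 6.52 to 7.41 and from 4.99 to 5.87, that of Ces2f in LGR5+ cells from 6.03 to 6.79 (no value without LGR5+ untreated library 3, which leaves no untreated read), and that of Ces1d from 1.10 to 1.41 and from 1.28 to 2.20. Requiring at least 10 reads in every library left 1 member, Ces1d, among those called in LGR5+ and 1 in LGR5- cells, because the others were removed. Without 1 library 3 to 4 members were called in each population.

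Counts over all genes moved more. For 5-FU in LGR5+ cells 2590 genes were called, against 4448 without both LGR5- libraries numbered 3, 4045 in the libraries compared alone, and 1373 to 2488 without 1 library. For LGR5- cells 2489 were called, against 1282 in the libraries compared alone and 1562 to 3418 without 1 library. The cause was not tested. LGR5+ against LGR5- cells after 5-FU gave 0 genes, 11 without a filter, 92 with DESeq2 and 451 in the treated libraries alone with the replicate block, where 2 members passed; leaving out 1 library gave 0 each time. The untreated comparison and the difference of responses gave 0 genes under all alternatives run. The replicate block in all 12 libraries changed no member call. Differences of the responses turned in sign for Ces2e without both LGR5- libraries numbered 3 (0.0354), and for Ces1d over a range of -0.906 to 0.0208 without 1 library (positive without LGR5- untreated library 2). Flanking genes called numbered 2 in LGR5+ cells, 1 to 2 without 1 library and 3 without both LGR5- libraries numbered 3 or in the libraries compared alone, with or without the replicate block, and 1 in LGR5- cells, 2 without both LGR5- libraries numbered 3. Of the 5 genes most similar to Ces2e, 2 were shared with the Spearman ranking. Depth limits the untreated side of every Ces2 ratio to 16 reads or fewer per group.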
